A study of Mus musculus with 9 samples.

Results

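The comparison set the interneurons of both lines that trace back to the medial ganglionic eminence (MGE) against the interneurons of the VIP line, which trace back to the caudal ganglionic eminence (CGE). It took in every library of the study: 6 MGE libraries, of which 3 were from the cross Nkx2.1-CreER;Ai47, induced with tamoxifen at embryonic day 17, and 3 from SOM-Cre;Ai47 mice, and 3 libraries from VIP-Cre;Ai47 mice. All 9 libraries carried the Ai47 reporter, which gives green fluorescence after Cre recombination, and all were taken on postnatal day 5. Each library held RNA of 150 fluorescent cells picked by hand from upper-layer strips of medial prefrontal and anterior cingulate cortex. The groups differed by line and, for the Nkx2.1 libraries alone, by tamoxifen, so the effects of tamoxifen and of that line cannot be told apart. Each line marks a population by its driver: cells that had Nkx2-1 active at the time of tamoxifen, cells with somatostatin (Sst) and cells with vasoactive intestinal peptide (Vip). Members of the comparison were all 23319 gene symbols of the count tables, and the 10728 that passed the filter on low counts were tested. In the difference tested, the Nkx2.1 and SOM lines each had the same weight.

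Cortical interneurons use GABA as their transmitter and are born in the ganglionic eminences of the ventral telencephalon, from which they migrate into the cortex. In the MGE, the homeodomain factor Nkx2-1 switches on Lhx6, and Lhx6 with Sox6 directs the cells towards somatostatin, basket and chandelier types. CGE cells instead keep Prox1, Nr2f2 and Sp8, and many of them become VIP or other Htr3a-positive cells. In the first postnatal week both groups are still placing their axons and forming their first synapses.

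Each library had between 6484488 and 12465997 reads in genes, and 8180 to 11490 genes had at least 1 read. The Nkx2.1 libraries had reads in 8180 to 10576 genes, the SOM libraries in 10923 to 11490 and the VIP libraries in 9672 to 10927. Levels are given as CPM, the usual scaling of a gene's reads to all reads in genes of a library, here after normalization by the trimmed mean of M-values (TMM). On this scale the deposited tables put Sst at 1606, 2179.6 and 1456 CPM in the SOM libraries, and Vip at 413, 805 and 698 CPM in the VIP libraries. Sst did not exceed 36.4 CPM in the Nkx2.1 libraries, and Vip did not exceed 3.55 CPM in the 6 MGE libraries, so both drivers matched their labels. Nkx2-1 itself had too few reads for a test, with 12, 10 and 1 in the Nkx2.1 line, 0, 0 and 1 in the SOM line and 0 in each VIP library. No source states that the replicates of a line are separate animals, and the p-values therefore describe the spread between libraries, which may be technical.

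Of the 10728 genes tested, 11 were higher in the MGE lines (0.103%) and 14 were lower (0.130%), together 25 (0.233%), at an adjusted p under 0.05 in edgeR's quasi-likelihood test with Benjamini-Hochberg adjustment. In 24 of these 25 genes every MGE library lay on the same side of every VIP library, and the exception was Nfib. That separation without overlap was far more frequent than the calls: 277 tested genes (2.58%) were above and 505 (4.71%) below in all 6 MGE libraries, together 782 (7.29%). Some genes separate in this way without any difference between the groups. That share was not computed, so separation alone does not show a difference. The median log2 difference of all tested genes was -0.06. With 6 residual degrees of freedom and a biological coefficient of variation of 140%, the edgeR fit called few of the separated genes, while DESeq2, over the 12217 genes it gave an adjusted p, called 393 higher (3.22%) and 528 lower (4.32%), among them all 25. At an unadjusted edgeR p under 0.05, 553 genes (5.15%) were higher and 775 (7.22%) lower. Every call kept its direction when any 1 library was left out, and 8 kept an adjusted p under 0.05 in all 9 of those fits: Nxph1, Lhx6, Nxph2, Cntnap3, Mef2c, Dcx, Asic4 and Cbln2. Leaving out single libraries moved the counts of calls: without VIP library 2 there were 18 higher genes, and lower genes numbered 44 without Nkx2.1 library 1, 6 to 8 without SOM library 2 or 3 or VIP library 2, and 2 or 3 without VIP library 1 or 3. With the 6 MGE libraries as 1 group and no line term, 12 of the 25 kept their call, and the edgeR adjusted p of the others was 0.0604 (Opcml), 0.0808 (Dcx and Nsmf), 0.133 (Cbln2), 0.135 (Tmem145), 0.161 (Rasd2), 0.178 (Apc), 0.259 (Mef2c), 0.324 (Caln1), 0.469 (Fxyd6), 0.535 (Npas1 and Pik3r2) and 0.984 (Nfib). In pooled RNA, fewer cells of a type and less RNA per cell cannot be told apart.

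**Figure D1:**
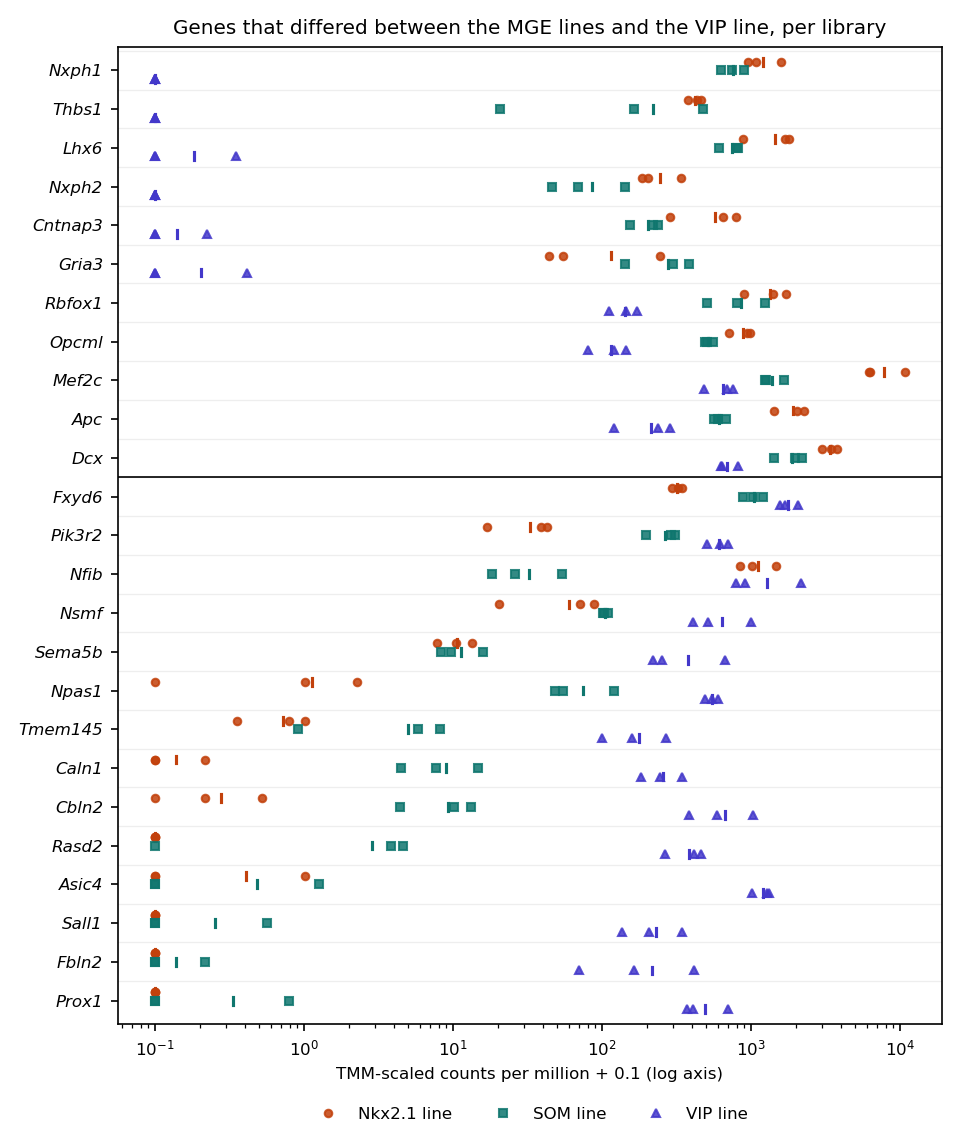
CPM per library, plus 0.1 and on a log axis, of the 25 genes that differed between the MGE lines and the VIP line, with 11 higher genes above the black line and 14 lower genes under it. Points are single libraries and ticks are the mean of a line's 3 libraries. Nxph1, Thbs1 and Nxph2 sit at the left edge in all VIP libraries (0 reads), Prox1, Fbln2 and Sall1 sit there in 5 of the 6 MGE libraries, and only in Nfib do Nkx2.1 and VIP points overlap.

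Among transcription factors, Lhx6, the LIM homeodomain factor that acts downstream of Nkx2-1 (chr2:36081953-36105408, minus strand), separated the groups without overlap. It stood at 888, 1693 and 1784 CPM in the Nkx2.1 libraries, at 608, 822 and 805 CPM in the SOM libraries, and at 0.247, 0 and 0 CPM in the VIP libraries. Only 2 VIP reads fell in the gene, and the ratio of pooled reads was 17507 with a 95% counting interval of 4846 to 144564. The fitted log2 difference was 13.60 ± 1.03 (SE), with an edgeR adjusted p of 0.000487. Mef2c (chr13:83504034-83667080, plus strand), an activity-regulated MADS-box factor that precedes parvalbumin-type fate in MGE cells, was higher as well, but to unequal extents. Its levels were 6300.1, 10723 and 6230.3 CPM in the Nkx2.1 line, 1264, 1245 and 1670.0 CPM in the SOM libraries and 483, 757 and 689 CPM in the VIP libraries. All MGE libraries lay above the VIP libraries, and the pooled log2 difference was 2.35 ± 0.25 (edgeR adjusted p = 0.00541), made up of a 12.1-fold difference for the Nkx2.1 line and 2.17-fold for the SOM line.

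The mirror image was Prox1 (chr1:190118035-190170714, minus strand), the homeobox factor that CGE interneurons keep after they leave the cell cycle. It had no read in 5 MGE libraries and 0.691 CPM in SOM library 3, against 371, 411 and 696 CPM in the VIP libraries. Mean CPM was 4273-fold lower in the MGE libraries, and the log2 difference was -13.08 ± 1.33 with an edgeR adjusted p of 0.00842. Npas1, a bHLH-PAS factor that limits interneuron production in the CGE, was graded rather than absent: 0.915, 0 and 2.17 CPM in the Nkx2.1 line, 121, 48.0 and 54.7 CPM in the SOM libraries and 491, 548 and 602 CPM in the VIP libraries. Its pooled log2 difference was -5.95 ± 0.90 (edgeR adjusted p = 0.0258). Sall1, a zinc finger factor outside the lineage lists, had 4 reads in the 6 MGE libraries together, all in SOM library 3, and 344, 135 and 208 CPM in the VIP libraries, a 2984-fold difference of mean CPM (edgeR adjusted p = 0.0231). These 3 lower factors kept their direction but lost their calls in fits without some single libraries. Without VIP library 1 the edgeR adjusted p was 0.0515 for Prox1, 0.112 for Npas1 and 0.152 for Sall1. Without VIP library 3 it was 0.0580, 0.105 and 0.0974, in that order. The log2 difference of Prox1 in these fits was -13.24 and -12.73. Npas1 also lost its call without Nkx2.1 library 1 (0.0521), without VIP library 2 (0.0823) and without SOM library 1, 2 or 3 (0.0880, 0.131 and 0.129), and Sall1 without VIP library 2 (0.0637) and the same SOM libraries (0.0648, 0.0860 and 0.0505).

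Of the 8 tested MGE lineage factors, 2 were called higher and 3 lay above all VIP libraries. None was called lower or lay below, and the median log2 difference was 1.67. Over all tested genes, 0.103% were called higher, 0.130% were called lower, 2.58% lay above and 4.71% lay below. The third separated factor was Sox6, which maintains MGE identity after Lhx6. It stood at 113, 385 and 499 CPM in the Nkx2.1 line and at 359, 890.3 and 736 CPM in the SOM libraries, against 46.0, 0 and 0 CPM in the VIP libraries. With VIP library 1 apart from the other 2, its log2 difference of 4.94 ± 1.97 had an edgeR adjusted p of 0.358. Maf, which is used by MGE interneurons after they leave the eminence, overlapped between the groups, at 76.4 to 346 CPM in the MGE libraries and 207 to 577 CPM in the VIP libraries (log2 difference -0.62 ± 0.51, edgeR adjusted p = 0.768). Of the 7 tested CGE lineage factors, 2 were called lower and 6 lay below all VIP libraries, with a median of -4.59, and none was higher. The 4 that were separated but not called included Nfix and Npas3, and also Nr2f1 and Sp8, which were picked here after their values were seen. For Npas3 the separation was narrow, at 365.94 CPM in SOM library 3 against 366.749 CPM in VIP library 1. Nfix reached 343.759 CPM in Nkx2.1 library 2, against 377.551 CPM in VIP library 2. The log2 difference of Nfix from VIP was -0.64 ± 1.05 for the Nkx2.1 line and -5.69 ± 1.28 for the SOM line. The edgeR adjusted p was 0.870 and 0.296, in that order. Sp8 had no read in 5 MGE libraries and 19.5 CPM in SOM library 1, against 43.5, 28.5 and 72.0 CPM in the VIP libraries. The one CGE factor that overlapped, Nr2f2, likewise picked after its values were seen, was split within the MGE group. It stood at 1.03, 0 and 0 CPM in the Nkx2.1 libraries but at 219, 97.8 and 193 CPM in the SOM libraries, next to 339, 102 and 110.3 CPM in the VIP libraries.

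**Figure D2:**
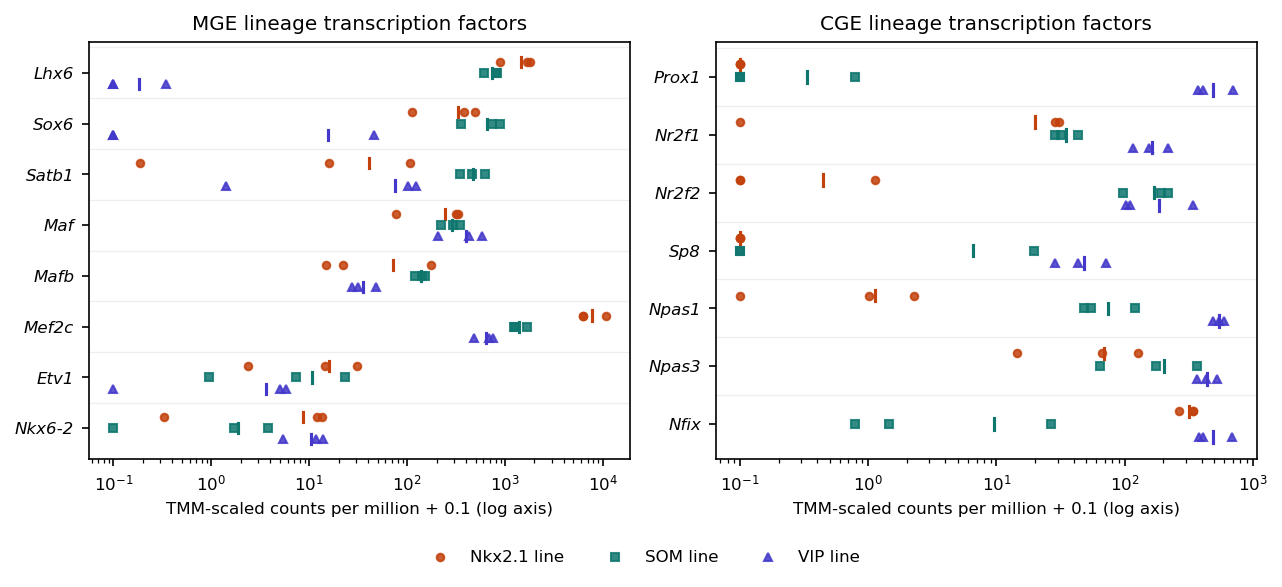
CPM per library, plus 0.1 and on a log axis, of the tested MGE (left) and CGE (right) lineage transcription factors, as points per library with the mean of each line as a tick. Lhx6, Sox6 and Mef2c are the 3 MGE factors whose MGE points all lie right of the VIP points, and in the right panel only Nr2f2 has MGE points among the VIP points.

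Promoter sequences were looked up for the called genes, and 18 of the 25 matched the RefSeq promoter table (GRCm38.p6), 8 higher and 10 lower. Shown are 250 bases before a RefSeq start, 5′ to 3′, for the higher genes with the lowest adjusted p (Nxph1, chr6:8949769-8950018, plus strand, and Lhx6, chr2:36105409-36105658, minus strand), for the lower gene Caln1 (chr5:130369208-130369457, plus strand), and for the higher genes with a TAATTA core (Mef2c, chr13:83523406-83523655, plus strand, and Dcx, chrX:143933220-143933469, minus strand). RefSeq starts can differ from the GENCODE gene positions given here: the Nxph1 and Mef2c windows lie inside the GENCODE gene, the Dcx and Caln1 windows overlap its end or start, and the Mef2c window is 1 of 3 for that gene. Capitals mark TAATTA, the core that many homeodomain proteins bind.
Nxph1: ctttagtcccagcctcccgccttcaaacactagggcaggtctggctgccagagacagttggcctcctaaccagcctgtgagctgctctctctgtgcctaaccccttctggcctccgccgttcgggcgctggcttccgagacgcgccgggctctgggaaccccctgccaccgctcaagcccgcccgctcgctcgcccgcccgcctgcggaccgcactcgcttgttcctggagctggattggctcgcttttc
Lhx6: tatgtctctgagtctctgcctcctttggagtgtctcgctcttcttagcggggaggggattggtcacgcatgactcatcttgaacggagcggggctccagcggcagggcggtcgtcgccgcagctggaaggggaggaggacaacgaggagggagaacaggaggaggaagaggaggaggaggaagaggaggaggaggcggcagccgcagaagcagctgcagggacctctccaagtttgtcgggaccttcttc
Caln1: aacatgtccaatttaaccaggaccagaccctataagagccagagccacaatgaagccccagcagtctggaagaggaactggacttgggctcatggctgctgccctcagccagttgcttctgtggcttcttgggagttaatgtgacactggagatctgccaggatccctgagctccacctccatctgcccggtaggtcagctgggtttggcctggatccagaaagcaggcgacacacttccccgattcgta
Mef2c: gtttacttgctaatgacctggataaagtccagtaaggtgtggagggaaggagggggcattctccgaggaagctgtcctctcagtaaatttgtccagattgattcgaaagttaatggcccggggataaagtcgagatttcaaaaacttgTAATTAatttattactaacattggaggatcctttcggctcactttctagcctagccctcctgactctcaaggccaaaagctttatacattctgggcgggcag
Dcx: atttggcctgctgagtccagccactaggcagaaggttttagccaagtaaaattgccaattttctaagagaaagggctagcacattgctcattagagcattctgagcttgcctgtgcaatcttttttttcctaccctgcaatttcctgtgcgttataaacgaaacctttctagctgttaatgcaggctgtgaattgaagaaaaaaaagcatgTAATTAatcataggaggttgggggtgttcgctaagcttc
TAATTA reads the same on both strands and was found in 3 of the 14 promoters of matched higher genes (21.4%), of which 2 are overlapping windows of Dcx, in 0 of the 13 promoters of lower genes and in 4.84% of all 32851 promoters of the table. It began 102 bases before the start in Mef2c and 39 bases before it in Dcx. The MEF2 motif, searched on both strands, was in 0 of the promoters of either direction and in 0.508% of all promoters. These matches are letters in a window and describe no binding.

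Of the 25 calls, the largest fitted log2 difference was that of a neurexophilin, one of the small secreted glycoproteins that bind alpha-neurexins at synapses. Nxph1 (chr6:8948431-9249032, plus strand) reached 952, 1075 and 1598 CPM in the Nkx2.1 line and 897, 625 and 750.4 CPM in the SOM libraries, and not a read in the VIP libraries. The MGE level was at least 9765-fold higher when 3 reads over the VIP libraries serve as the floor. This was the lowest adjusted p of all tested genes, 7.53e-05 in edgeR, at a log2 difference of 16.17 ± 0.68. As Nxph1 had 0 VIP reads, the reads give the bound above but set no upper limit to this fitted value. Its paralog Nxph2 (chr2:23321246-23401973, plus strand) likewise had no VIP read: 204, 186 and 341 CPM in the Nkx2.1 line, 46.0, 69.0 and 143 CPM in the SOM libraries (at least 1637-fold higher, edgeR adjusted p = 0.00988). Cbln2, a secreted cerebellin that links neurexins to postsynaptic receptors, went the other way. It was at 385, 1024 and 586 CPM in the VIP libraries, at 4.28, 9.99 and 13.0 CPM in the SOM libraries and at 0.114, 0 and 0.417 CPM in the Nkx2.1 libraries (log2 difference -8.97 ± 0.84, edgeR adjusted p = 0.00182). These were 3 of the 18 tested neurexins and neurexin ligands, 2 called higher and 1 lower, while the list's median was -0.49. The neurexin Nrxn3 overlapped, with a log2 difference of 0.52 ± 0.29 (edgeR adjusted p = 0.557).

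Cntnap3 (chr13:64736182-64903955, minus strand), a contactin-associated membrane protein of the neurexin superfamily, was at 649.6, 789 and 285 CPM in the Nkx2.1 line and at 154, 237 and 219 CPM in the SOM libraries. A single read fell in it in the VIP libraries, which gave a pooled ratio of 12133 (95% counting interval 2177 to 479259) and an edgeR adjusted p of 0.00107. Cntnap3 was the 1 call among 12 contactins and contactin-associated proteins, with no member lower and a median of 1.51. Its relative Cntnap2 overlapped between the groups, with a median of 379 CPM over the MGE libraries and 246 to 339 CPM in the VIP libraries. Opcml, a GPI-anchored IgLON adhesion protein, was the 1 call among 21 immunoglobulin superfamily genes. It was present in every library: 942, 989 and 712 CPM in the Nkx2.1 line, 506, 488 and 558 CPM in the SOM libraries and 80.5, 145 and 120.0 CPM in the VIP libraries. The difference was 7.64-fold for the Nkx2.1 line and 4.48-fold for the SOM line (pooled log2 2.55 ± 0.34, edgeR adjusted p = 0.0135). It missed the threshold without VIP library 1 (0.0741), VIP library 3 (0.0796) or SOM library 3 (0.0505). Opcml was among 5 members of this list that lay above all VIP libraries (against 2.58% of all tested genes), and none lay below (against 4.71%). They included Chl1, a cell adhesion molecule of the L1 family, at 1405 to 2271 CPM in the MGE libraries and 597 to 1099.5 CPM in the VIP libraries (log2 1.07 ± 0.26, edgeR adjusted p = 0.144).

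Matrix proteins were called in both directions. Thbs1, a thrombospondin that promotes excitatory synapse formation when astrocytes secrete it, was at 433, 376 and 462 CPM in the Nkx2.1 line and spread from 20.4 to 474 CPM in the SOM libraries, with 0 reads in the VIP libraries. With 3 reads as the floor, the MGE level was higher by at least 3195-fold (edgeR adjusted p = 0.0174), and the call was lost without VIP library 1 (0.0761) or VIP library 3 (0.0580). Fbln2, an extracellular matrix fibulin, was at 416, 70.1 and 165 CPM in the VIP libraries and had 1 read in the 6 MGE libraries together. Its pooled ratio was 11583 in favour of VIP, with a 95% counting interval of 2078 to 457564 (edgeR adjusted p = 0.0133). That call was lost without SOM library 1, 2 or 3 (0.0514, 0.0636 and 0.0855), VIP library 1 (0.124) or VIP library 3 (0.0580). The 19 tested matrix genes had a median of 1.39. Of these, 4 lay above and 1 below all VIP libraries (against 2.58% and 4.71% of all tested genes). Spock3, a testican proteoglycan, was among those above, at 281 to 578 CPM against 63.8 to 219 CPM (edgeR adjusted p = 0.166).

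Of the guidance molecules, Sema5b, a transmembrane semaphorin that repels or attracts axons depending on context, fell to similar low levels in both MGE lines. It was at 13.4, 7.67 and 10.4 CPM in the Nkx2.1 line, 9.62, 15.7 and 8.18 CPM in the SOM libraries and 667, 253 and 219 CPM in the VIP libraries. The difference was 36.2-fold for the Nkx2.1 line and 34.0-fold for the SOM line (pooled log2 -5.13 ± 0.62, edgeR adjusted p = 0.00842). Without VIP library 1, which holds the highest level, the adjusted p was 0.152. Sema5b was the 1 call among 25 semaphorins, plexins and neuropilins, of which 3 lay above and 2 below all VIP libraries. Over all tested genes, 0.233% were called, 2.58% lay above and 4.71% lay below. The secreted semaphorin Sema3a, picked after its values were seen, was at 0, 0.312 and 0 CPM in the VIP libraries and at 2.39 to 410.2 CPM in the MGE libraries. Its log2 difference of 10.85 ± 2.01 had an edgeR adjusted p of 0.0631. No call was made among 26 ephrin, Slit-Robo and netrin genes, 7 teneurins and latrophilins, 24 cadherins and protocadherins or 23 leucine-rich repeat and LAR adhesion genes by edgeR. At an unadjusted edgeR p under 0.05 these lists had 5, 2, 5 and 0 members higher and 3, 0, 0 and 3 lower, in that order. DESeq2 called 3, 2, 4 and 0 higher and 0, 0, 1 and 3 lower. Over all genes, 5.15% were higher and 7.22% lower at that p, and 3.22% and 4.32% by DESeq2. Closest to the threshold was Tenm2, a teneurin that binds latrophilins across the synapse, at 454 to 2510.5 CPM in the MGE libraries and at 185 ± 70.9 CPM (SD, n = 3) in the VIP libraries (log2 2.38 ± 0.42, edgeR adjusted p = 0.0555). The cadherin list had 5 members above and 1 below all VIP libraries, among them Cdh13, a GPI-anchored cadherin, at 173 to 691 CPM against 3.80 to 63.3 CPM (edgeR adjusted p = 0.142).

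The receptor and channel lists held 1 call, Gria3. Gria3 (chrX:41400854-41678601, plus strand), a subunit of the AMPA-type glutamate receptor, was at 43.7, 245 and 54.9 CPM in the Nkx2.1 line and at 299.5, 142 and 384 CPM in the SOM libraries. The VIP libraries held 3 reads in all, at 0, 0.312 and 0 CPM, for a pooled ratio of 1910 (95% counting interval 653 to 9262). Its log2 difference was 10.58 ± 1.64 (edgeR adjusted p = 0.0305), and the call was lost without SOM library 1, 2 or 3 (0.0954, 0.0765 and 0.129), VIP library 1 (0.124) or VIP library 3 (0.105). The subunit genes Gria1 and Gria4 were also above in all 6 MGE libraries, without passing the threshold. Gria1 was at 1288 to 2913 CPM in the MGE libraries against 42.2, 24.0 and 233 CPM in the VIP libraries (20.5-fold, log2 4.33 ± 0.75, edgeR adjusted p = 0.0555). Gria4 was at 427 to 2189.9 CPM against 51.4, 187 and 48.5 CPM (10.7-fold, log2 3.24 ± 0.57, edgeR adjusted p = 0.0555). Of the 13 tested AMPA receptor genes, auxiliary proteins included, 1 was called higher. In this list 4 lay above and 1 below all VIP libraries (against 2.58% and 4.71% of all tested genes). The median was -1.47, opposite in sign to the call. The fourth gene above was Cacng3, an auxiliary TARP subunit picked after its values were seen, at 180.4 to 626 CPM against 0 to 23.2 CPM (edgeR adjusted p = 0.168).

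Asic4 (chr1:75450436-75474343, plus strand), a member of the acid-sensing ion channel family that is in none of the gene lists, was nearly absent from the MGE libraries. It was at 1319, 1013 and 1274 CPM in the VIP libraries, and the MGE libraries had 0.915 CPM in Nkx2.1 library 1, 1.15 CPM in SOM library 3 and 0 in the other 4. Mean CPM differed 3489-fold, with a log2 difference of -11.76 ± 1.41 and an edgeR adjusted p of 0.00842. By edgeR no call was made among 12 NMDA and kainate receptor genes, 11 GABA-A receptor subunits, 45 potassium and HCN channels, 13 sodium channel and FGF homologous factor genes or 21 calcium channel genes, whose medians lay between 0.04 and 0.78. At an unadjusted edgeR p under 0.05, 5, 0, 5, 2 and 2 members were higher and 2, 1, 3, 0 and 2 lower, in that order. DESeq2 called 4, 0, 4, 1 and 2 higher and 1, 1, 4, 0 and 1 lower. Over all genes, 5.15% were higher and 7.22% lower at that p, and 3.22% and 4.32% by DESeq2. The potassium channel partner Dpp10 lay above in every MGE library, at 331 to 939 CPM against 20.4 to 179.7 CPM, with an edgeR adjusted p of 0.216. Its relative Dpp6 overlapped (148 to 952 against 264 to 533 CPM, edgeR adjusted p = 0.970). Among 26 neuromodulator and metabotropic receptors there was no edgeR call, with 5 higher and 5 lower at an unadjusted p under 0.05 and 3 in each direction by DESeq2. Grm5, a metabotropic glutamate receptor, had a log2 difference of 1.30 ± 0.41 (edgeR adjusted p = 0.250).

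Cytoskeletal and migration genes included 2 of the higher calls and none of the lower ones. Doublecortin (Dcx, chrX:143855842-143933311, minus strand), a microtubule-binding protein of migrating and immature neurons, was at 3467, 3747 and 2992 CPM in the Nkx2.1 line, 1983, 1423 and 2201 CPM in the SOM libraries and 625, 639 and 812 CPM in the VIP libraries. All lines expressed it, and the difference was 4.92-fold for the Nkx2.1 line and 2.70-fold for the SOM line (pooled log2 1.87 ± 0.21, edgeR adjusted p = 0.00707). Apc, a microtubule plus-end and Wnt pathway protein, was at 1417, 2257 and 2044 CPM in the Nkx2.1 line, 568, 597 and 675 CPM in the SOM libraries and 121, 236 and 287 CPM in the VIP libraries. Its folds were 8.88 for the Nkx2.1 line and 2.86 for the SOM line (pooled log2 2.33 ± 0.34, edgeR adjusted p = 0.0229). The Apc call was lost without SOM library 2 or 3 (0.0613 and 0.0681) and without VIP library 1, 2 or 3 (0.0595, 0.0720 and 0.0580). Of the 38 tested members of this list, 6 lay above and 2 below all VIP libraries (against 2.58% and 4.71% of all tested genes). The median was 0.34. Map2, the dendritic microtubule protein, and Ank2, an ankyrin of axons, both picked after their values were seen, were among those above, with log2 differences of 1.45 ± 0.27 and 1.69 ± 0.30 (edgeR adjusted p = 0.0641 and 0.0555).

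The RNA-binding protein Rbfox1, a regulator of neuronal splicing, was higher in every MGE library. Its levels were 1406, 894 and 1729 CPM in the Nkx2.1 line, 807, 507 and 1241 CPM in the SOM libraries and 111, 172 and 144 CPM in the VIP libraries. The fold was 9.45 for the Nkx2.1 line and 5.99 for the SOM line (pooled log2 2.91 ± 0.40, edgeR adjusted p = 0.0157), and the call was lost without VIP library 1 (0.106) or VIP library 3 (0.0866).

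The remaining lower genes were signalling and membrane proteins. Caln1, a neuronal calmodulin-like calcium sensor, was at 342, 183 and 243 CPM in the VIP libraries, at 4.38, 7.61 and 14.5 CPM in the SOM libraries and at 1 read over the 3 Nkx2.1 libraries (log2 -8.64 ± 1.03, edgeR adjusted p = 0.00842). It was the 1 call among 17 calcium-binding proteins, whose median was -1.14, and was lost without VIP library 1 (0.0761) or 3 (0.0532). Rasd2, a Ras-like GTPase of striatal and other neurons, was at 465, 411 and 266 CPM in the VIP libraries, at 3.74, 0 and 4.49 CPM in the SOM libraries and without a read in the Nkx2.1 libraries. Its edgeR adjusted p was 0.0246, and the call was lost without SOM library 1 or 3 (0.0954 and 0.108) or VIP library 1, 2 or 3 (0.124, 0.0823 and 0.0796). Caln1 had reads in every SOM library, and Rasd2 had none in SOM library 2.

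Fxyd6, a regulatory subunit of the sodium pump, was expressed by all lines in a graded order: 343, 324 and 292 CPM in the Nkx2.1 line, 1209.9, 1035 and 887 CPM in the SOM libraries and 2078, 1555 and 1701 CPM in the VIP libraries. No 2 lines overlapped, and the pooled log2 difference was -1.62 ± 0.20 (edgeR adjusted p = 0.00988, but 0.0901 without VIP library 1 and 0.0580 without VIP library 3). Pik3r2, a regulatory subunit of PI3 kinase, had the same order, at 16.7, 38.6 and 42.3 CPM, then 289, 311 and 197 CPM, then 697, 504 and 616 CPM. Its pooled log2 difference was -2.70 ± 0.39 (edgeR adjusted p = 0.0224), lost without any 1 of the SOM libraries (0.0805, 0.0876 and 0.101) or VIP libraries (0.124, 0.0661 and 0.105). Nsmf, a synapse-to-nucleus messenger protein, was at 20.2 to 109 CPM in the MGE libraries and at 995, 405 and 517 CPM in the VIP libraries (edgeR adjusted p = 0.0464). Tmem145, a membrane protein, was at 0.256 to 8.13 CPM in the MGE libraries and at 158, 270.4 and 101 CPM in the VIP libraries (edgeR adjusted p = 0.0352). These last 2 rested on the full set of libraries: Tmem145 lost its call in each of the 9 fits without 1 library (0.0503 to 0.222), and Nsmf in those without Nkx2.1 library 3 or any 1 SOM or VIP library (0.0705 to 0.262).

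The contrast gives each MGE line the same weight, so its 2 component differences were set side by side, with the same 3 VIP libraries in both. In 23 of the 25 genes the Nkx2.1 line lay farther from the VIP line than the SOM line did, 10 of 11 higher and 13 of 14 lower, with Gria3 and Nfib as the exceptions. The same share over all tested genes was not computed, so it is not known whether this is particular to the calls. For Prox1, Sall1 and Fbln2 the order rested on 6, 4 and 1 MGE reads, all in SOM library 3. For Asic4 it rested on 8 reads in Nkx2.1 library 1 and 10 in SOM library 3. The difference between the MGE lines themselves passed the edgeR threshold in 3 of the 25 genes, against 10 of all 10728 tested genes (0.0932%). Mef2c was higher in the Nkx2.1 than in the SOM line by a log2 value of 2.48, and Fxyd6 was lower by 1.71 (log2 -1.71, edgeR adjusted p = 0.0144 and 0.0473). The third was Nfib, a nuclear factor I transcription factor, which the pooled contrast called lower with the SOM line alone apart from the VIP line. Its levels were 1461, 847 and 1021 CPM in the Nkx2.1 line and 2165, 795 and 905 CPM in the VIP libraries, which overlapped, and 53.5, 25.8 and 18.1 CPM in the SOM libraries. The log2 difference from VIP was -0.22 ± 0.50 for the Nkx2.1 line and -5.31 ± 0.60 for the SOM line, and the pooled value of -2.76 ± 0.42 (edgeR adjusted p = 0.0258) describes neither. Without Nkx2.1 library 2 or 3, SOM library 2 or 3, or VIP library 1 or 3, its pooled adjusted p was 0.0580 to 0.152. Tested singly against the shared VIP libraries, 21 of the 25 genes passed the edgeR threshold in the Nkx2.1 line (background 0.308%) and 6 in the SOM line (background 0.0746%). The 25 genes were chosen by the mean of these same 2 differences in the same libraries. Shares above the background therefore follow from the choice and are no separate support. The genes that passed in both lines were Nxph1, Lhx6, Thbs1, Nxph2 and Cntnap3. The edgeR adjusted p of the SOM line was 0.0534 to 0.103 for Gria3, Dcx, Cbln2, Rbfox1, Sema5b, Opcml, Asic4, Prox1 and Fbln2, and 0.228 to 0.607 for the other genes that did not pass, among them 0.296 for Mef2c and Apc, 0.462 for Fxyd6, 0.534 for Npas1 and 0.607 for Pik3r2. The libraries of both MGE lines lay on the same side of the VIP libraries in all calls but Nfib.

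**Figure D3:**
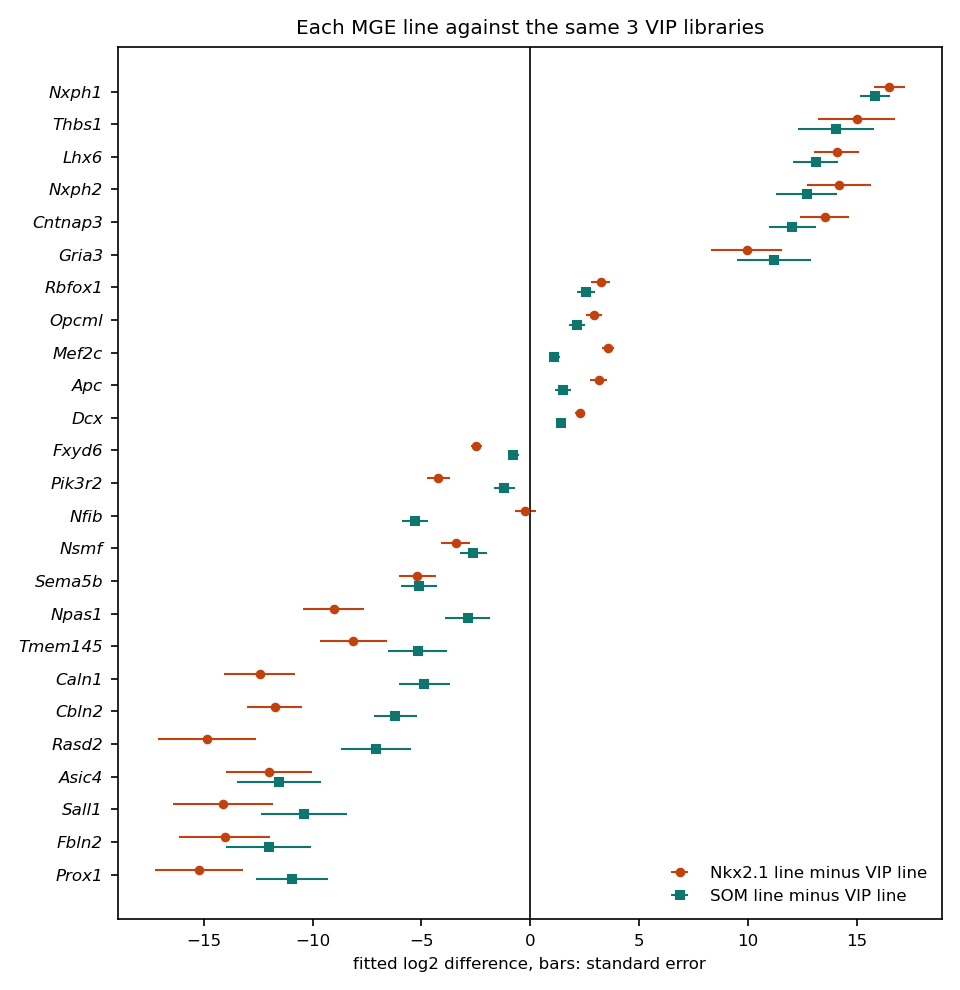
Fitted log2 difference from the VIP line for the Nkx2.1 line (circles) and the SOM line (squares) in the 25 called genes, with the standard error as a bar, and with the same 3 VIP libraries in both. The circle is farther from 0 than the square in 23 genes, and the circle of Nfib alone lies near 0, at -0.22.

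Genes by which mature subtypes are known were not called. By edgeR none of 16 tested somatostatin and parvalbumin cell effector genes was called (8 higher and 1 lower at an unadjusted p under 0.05, 7 and 1 by DESeq2), with a median of 2.97 and 3 members above and 1 below all VIP libraries. Npy, a peptide of many MGE interneurons, was at 276, 145 and 108 CPM in the Nkx2.1 line and 3969.8, 7200.1 and 3583 CPM in the SOM libraries, against 0.124, 5.52 and 0 CPM in the VIP libraries (log2 8.95 ± 1.58, edgeR adjusted p = 0.0555). None of 17 tested VIP and CGE effector genes was called either (1 higher and 10 lower at an unadjusted edgeR p under 0.05, 0 and 8 by DESeq2). Their median was -4.95, and 9 members lay below all VIP libraries. Over all tested genes, 2.58% lay above and 4.71% below. Cnr1, the cannabinoid receptor of cholecystokinin and VIP cells, was at 64.0 to 535 CPM in the MGE libraries and 1467 to 2808 CPM in the VIP libraries (6.07-fold lower, edgeR adjusted p = 0.0876). Chosen after their values were seen, Calb2 (calretinin), the peptide gene Tac2 and the adenosine deaminase gene Adarb2 had log2 differences of -3.95 ± 0.70, -10.83 ± 1.62 and -6.12 ± 1.23 (edgeR adjusted p = 0.0555, 0.0541 and 0.0876). Sst and Vip, the drivers of their lines, had pooled differences of 11.85 ± 2.09 and -9.79 ± 1.69 (edgeR adjusted p = 0.0555 for each).

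None of the genes listed as shared by GABAergic neurons passed the edgeR threshold. At an unadjusted p under 0.05, 2 were higher and 2 lower, and by DESeq2 2 and 1. Gad1 and Gad2, the enzymes that make GABA, had log2 differences of -0.27 ± 0.30 and 0.53 ± 0.41 (edgeR adjusted p = 0.870 and 0.735). The 13 tested members had a median of -0.20, with 2 above and 2 below all VIP libraries (against 2.58% and 4.71% of all tested genes). Dlx6 lay below, at 0 to 6.34 CPM in the MGE libraries and 7.85 to 48.6 CPM in the VIP libraries. Sp9 lay above, at 0.807 to 40.0 CPM in the MGE libraries and 0 to 0.165 CPM in the VIP libraries. Both are transcription factors of ventral forebrain neurons that were picked after their values were seen, and neither passed the threshold (edgeR adjusted p = 0.282 and 0.226).

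**Figure D4:**
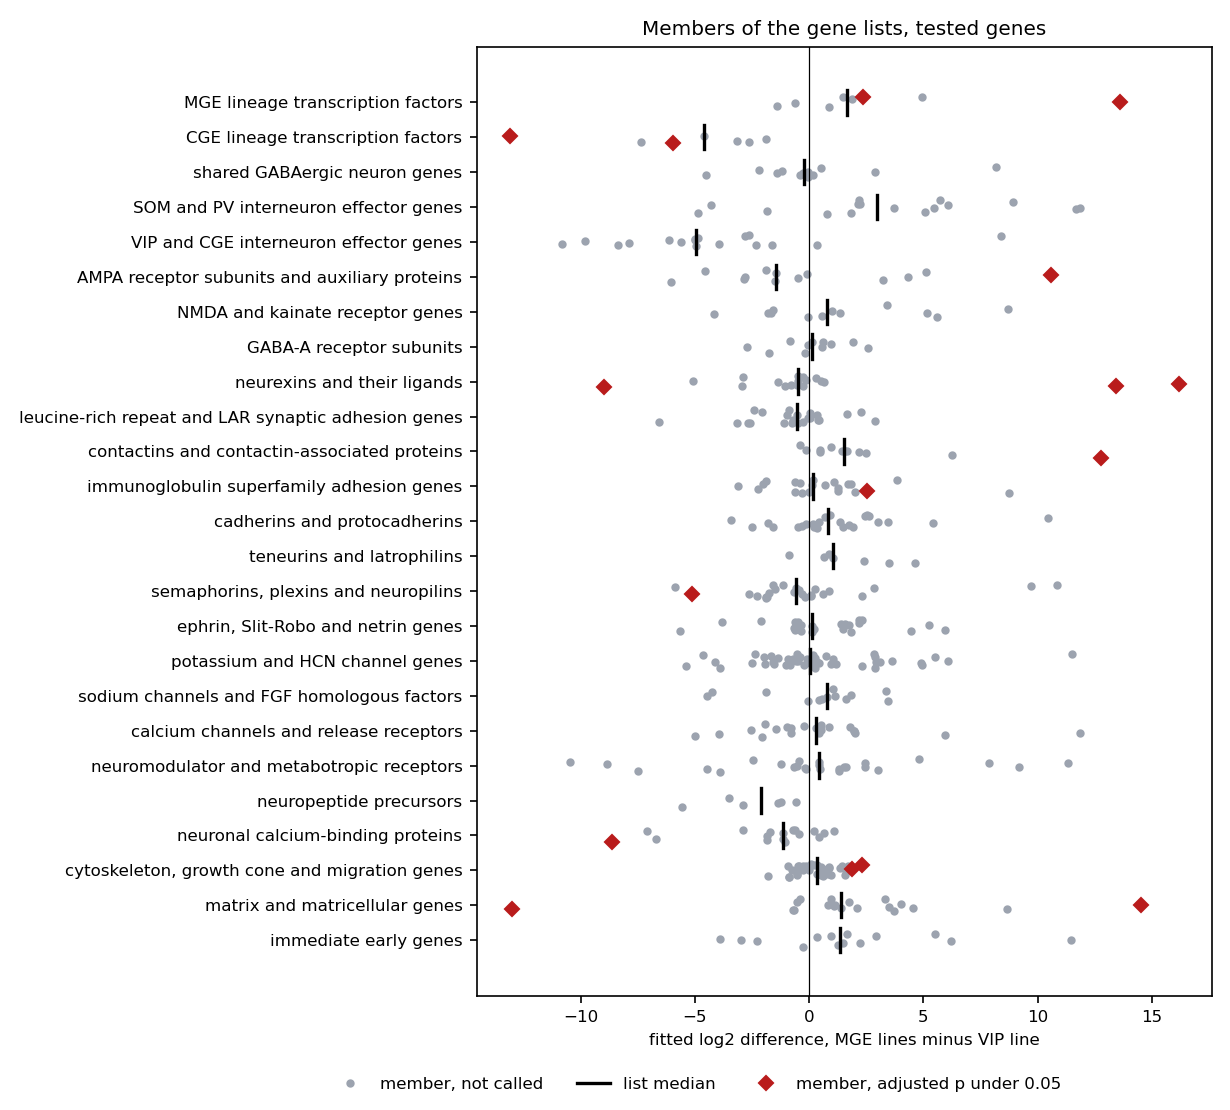
Fitted log2 difference (MGE lines minus VIP line) of every tested member of 25 gene lists, with called members as diamonds, other members as circles and the median of each list as a bar. Calls are spread over 10 lists, at most 3 in a list, and the medians furthest from 0 are those of the VIP and CGE effector genes (-4.95) and the CGE lineage factors (-4.59).

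Genes that were on in 1 group and off in the other were counted with no test, as at least 10 CPM in every library of 1 group and under 1 CPM in every library of the other. Of the 10728 tested genes, 11 were on in the MGE libraries and 11 were on in the VIP libraries. The calls, made from the same reads, held 6 of the former and 3 of the latter (Prox1, Fbln2 and Sall1). From the rest, Ret, Nr2e1 and Edaradd were picked here after their values were seen. Ret, the receptor tyrosine kinase for GDNF family ligands, was at 71.1, 69.3 and 21.1 CPM in the VIP libraries and had 0 reads in the MGE libraries (at least 1026-fold lower, edgeR adjusted p = 0.108). Nr2e1, an orphan nuclear receptor of neural progenitors, was at 85.5, 204 and 69.8 CPM in the VIP libraries and at no more than 0.807 CPM in the MGE libraries (752-fold lower, edgeR adjusted p = 0.0562). Edaradd, the adaptor of the ectodysplasin receptor, had 0 reads in the VIP libraries and 21.5 to 206 CPM in the MGE libraries (at least 632-fold higher, edgeR adjusted p = 0.0900).

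Markers of other cells were summed per library to see what moved with the groups. Oligodendrocyte lineage markers were at 156 to 654 CPM in the MGE libraries and 1.85 to 129 CPM in the VIP libraries, without overlap in the sum, while none of the 6 tested members was called by edgeR or separated alone (1 higher at an unadjusted p under 0.05, and 1 by DESeq2). The median log2 difference of these 6 members was 4.23. Cnp was at 320.5, 0 and 30.2 CPM in the Nkx2.1 line and at 41.3, 75.3 and 102 CPM in the SOM line. In the VIP libraries Cnp was at 0.124, 16.5 and 0 CPM. Mbp overlapped, at 0.0853 to 163 CPM in the MGE libraries and 0.247 to 95.7 CPM in the VIP libraries. Olig1, Olig2 and Sox10 did not exceed 20.7 CPM in any library. Astrocyte markers were at 3833 CPM in Nkx2.1 library 1, 79.4 to 725 CPM in the other 5 MGE libraries and 322 to 433 CPM in the VIP libraries, and excitatory neuron markers at 25.0 to 637 and 46.4 to 236 CPM, so both sums overlapped. Among the latter, Bcl11b, which interneurons also express, was the 1 member of 7 tested that was separated. Microglial markers overlapped, at 30.8 to 143 and 84.7 to 105 CPM, and endothelial and erythrocyte markers did not exceed 17.8 CPM. Immediate early genes, which respond to activity and to dissociation, were at 257 to 1700 CPM in the MGE libraries and 138 to 598 CPM in the VIP libraries, with 0 of 14 tested members called by edgeR (2 higher and 1 lower at an unadjusted p under 0.05, 1 and 1 by DESeq2). The part of these cells and of dissociation in the differences was not tested. Leaving out Nkx2.1 library 1, which held the most astrocyte and oligodendrocyte marker reads, kept 23 of the 25 calls. It gave 12 higher and 44 lower genes in all. The other 5 MGE libraries still held oligodendrocyte lineage markers at 156 to 342 CPM, so that fit cannot show the part of these cells.

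Some genes of interest could not be compared. On the minus strand of chromosome 9 only 36 of 522 protein-coding genes had a read in any library, and on the minus strand of chromosome 19 a run of 121 neighbouring protein-coding genes had none, although 68.9% and 76.3% of the genes on the other strand of these stretches did. This left 582 genes without values, 20 of them in the gene lists, among them the CGE markers Htr3a and Cck and the adhesion genes Ncam1 and Ntm, and their 0 counts are not read as absence here.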

How the data were processed

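RNA was counted in 9 libraries, 3 per line, each of hand-picked fluorescent cells. Each deposited table holds whole-number read counts for 1 library by gene symbol, without normalization, per the labels. The submitters' processing notes list the build mm10 and the tools TopHat2 2.0.9 and DESeq2, without saying what each was used for. The sources used here name neither the counting program nor its strand setting, so a gene and an overlapping gene on the other strand may share reads. The 5 summary entries of each table, 83.6% to 85.2% of its total, stayed out of library sizes and tests. Depth was 6484488 to 12465997 reads in genes, at which 3 reads came to 0.241 to 0.463 CPM before TMM scaling.

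The main test was the quasi-likelihood test of edgeR 4.0.16 (R 4.3.3) on the counts as deposited, with TMM normalization, the filterByExpr filter at a minimum count of 10, line as the only term and all 9 libraries in 1 fit. The difference tested was the mean of the Nkx2.1 and SOM lines minus the VIP line, with Benjamini-Hochberg adjustment over 10728 genes and a threshold of 0.05. Standard errors (SE) were obtained by dividing each absolute log2 value by the square root of its F statistic. Where a group had 0 or few reads, this value is no reliable measure of precision. The fitted log2 value averages the 2 lines on the log scale, while folds are ratios of mean CPM over libraries, so they can differ. A fold against a group with 0 reads is given as "at least", with 3 reads assumed over the whole group, and with 1 to 3 reads the ratio of pooled reads is given with its exact 95% interval. Neither covers more than counting error, as the reads carry no molecular identifiers.

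Named genes were Nkx2-1, Lhx6, Sst, Vip, Prox1, Gad1 and Gad2, up to 15 called genes per direction by fitted difference with no overlap and at least 10 CPM, up to 5 more per direction by adjusted p and up to 5 in which 1 line overlaps VIP, and, per gene list, up to 4 called members and the 2 most abundant others. A few genes that this rule names are not reported here. The members and the 35 gene lists were chosen with earlier results of these data known. Lists are described by counts and medians, with no set test. Besides the lists in the report, the following had no edgeR call: 6 neuropeptide precursors (median log2 -2.12, with 4 lower at an unadjusted p under 0.05 and 1 lower by DESeq2), 5 cell division genes (0.55, with 0 at an unadjusted p under 0.05 and 1 higher by DESeq2), 8 nuclear noncoding RNAs (0.52, with 1 lower by either measure) and 5 sex-linked genes (1.68, with 0 by either). No mitochondrial mRNA was in the tables. Gene positions come from GENCODE M21 (mm10). The fit was also run on simulated counts with a lower spread than that of these data, so that run does not show how it performs at this spread. Alternatives were DESeq2 1.42.0, RLE normalization, other filters, a robust fit, no line term, a replicate block, 2 abundant RNAs left out, and each library left out.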

Additional observations from a re-analysis of the deposited data

Results flagged for a closer look

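Within the 6 MGE libraries, 1 library stood apart from the other 5 by more than Dixon's 95% limit in 24 of 113 gene levels and marker sums checked. Chance flags about 1 in 20 groups of normal values from 1 population, a rate that does not hold for these 6 libraries of 2 lines, where a gene at 0 in 5 libraries stands apart with a single read, as Fbln2 did. Nkx2.1 library 1 accounted for the glial ones: astrocyte markers summed to 3833 CPM against 79.4 to 725 CPM in the other 5, and oligodendrocyte lineage markers to 654 CPM against 156 to 342 CPM. In the same library Slc1a3 was at 1662 CPM, Fabp7 at 1249 CPM, Sparcl1 at 1209 CPM, Cnp at 320.5 CPM, Robo2 at 976 CPM, Sema6a at 391 CPM, Ccna2 at 105 CPM, Adarb2 at 210.5 CPM, Edaradd at 206 CPM and Vip at 3.55 CPM, each above the other 5.

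Nkx2.1 library 2 was high for Cntnap2 (1834 CPM against 187 to 427 CPM) and for Xist (494 CPM against 103 to 242 CPM). Nkx2.1 library 3 alone had no read of Nr2f1 (0 CPM against 28.5 to 43.0 CPM).

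SOM library 1 was high for CGE genes at low levels: Sp8 at 19.5 CPM, Tac2 at 12.1 CPM and Calb2 at 182 CPM. Its microglial markers summed to 143 CPM, against 30.8 to 65.0 CPM in the other 5. SOM library 3 was high for Plxna2, at 851 CPM, and held nearly all the MGE reads of the VIP genes Prox1 (0.691 CPM), Sall1 (0.461 CPM), Fbln2 (0.115 CPM) and Nr2e1 (0.807 CPM).

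The difference from VIP was not the same in the 2 MGE lines in 5 named genes, by the edgeR test of Nkx2.1 against SOM. These were Nfib (log2 5.09, adjusted p = 0.0144), Mef2c (2.48, 0.0144), Malat1 (2.22, 0.0473), Fxyd6 (-1.71, 0.0473) and Nrep (1.65, 0.0154), a regulator of neuronal process growth. Of these, Nrep and the nuclear RNA Malat1 were not called in the pooled comparison (edgeR adjusted p = 0.535 and 0.495).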

How the results depend on the processing

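All 25 called genes kept their direction in every setting run, and all 25 kept an adjusted p under 0.05 with RLE normalization, both other filters, the robust fit, DESeq2 and without Rn45s and Malat1. The counts of higher and lower genes were 22 and 30 with no filter, 393 and 528 with DESeq2, and 7 and 5 with the MGE libraries as 1 group without a line term. Leaving out each library in turn gave 8 to 18 higher and 2 to 44 lower genes. Genes above all VIP libraries then numbered 322 to 519 and genes below 599 to 905, against 277 and 505, with fewer libraries to separate. With a replicate block, 8 higher and 8 lower genes were called, 14 of them among the 25. Of the 8 genes that kept their call without any 1 library, Nxph2 alone lost it with the block (edgeR adjusted p = 0.0603). Deviations from the line mean correlated at -0.0326 to 0.0643 in same-numbered libraries (9 pairs) and at -0.0653 to 0.0331 in the others (18 pairs). As these deviations are centred within 3 libraries a line, the values cannot exclude that the numbers pair the libraries. Without a line term Fgf13 was at log2 0.19 and Mcm6 at 1.07, opposite to their main values. Leaving out 1 library turned the sign of uncalled log2 differences in Gad1 (-0.48 to 0.022), Sema6a (-0.62 to 0.43), Dpp6 (-0.31 to 0.64), Fgf13 (-0.25 to 0.44), Gabbr1 (-0.47 to 0.010), Sparcl1 (-0.38 to 1.40), Mbp (-0.87 to 1.61) and Ddx3y (-0.054 to 2.03), and the cause was not tested. Depth sets the floor of the folds against 0 reads, and 3 libraries a line limit the precision.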
